A study of Mus musculus with 8 samples.

Results

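The 10 transcription factors described here are GATA1, GATA2, KLF1, TAL1, LMO2, LDB1, ZFPM1 (also called FOG1), NFE2, GFI1B and SPI1 (also called PU.1). They were taken by name as factors of red cell and stem cell formation. No cut on their values was used, but earlier results of these data were known. All 10 were found among the 52636 genes of the count table. RNAseq counts were available for S0 cells from E12.5 fetal livers, with 4 WT and 4 DKO libraries. S0 cells are the least mature cells of the erythroid sorting scheme: live cells without markers of other blood lineages, without CD71 (the transferrin receptor) and without Ter119. DKO embryos lacked both Vps13a (the tm1d allele, deleted by way of FLP recombinase and a β-actin-Cre transgene) and Vps13c, genes for bridge-like lipid transfer proteins. They came from intercrosses of Vps13a+/-/Vps13c-/- mice on a C57BL/6J background. Such crosses give no embryos that are WT for Vps13c, so genotype and litter cannot be told apart. The labels do not say whether each library came from a separate embryo.

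GATA1 and GATA2 are zinc finger proteins that bind the same DNA letters. GATA2 acts in stem cells and early progenitors, and GATA1 takes over many of its sites as cells commit to red cells, for which its cofactor ZFPM1 is needed. GATA1 shares enhancers with a complex in which TAL1 binds DNA with an E protein, LMO2 bridges TAL1 to LDB1, and LDB1 joins distant sites by pairing with itself. KLF1, NFE2 and GFI1B work beside this complex on red cell genes and on the silencing of progenitor genes. SPI1 drives myeloid and lymphoid genes, and it and GATA1 counteract each other.

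Library totals were 42114489 to 50886469 counts in WT and 36981439 to 42587815 in DKO. Values below are normalized counts, which are counts scaled to a common library size with the TMM factors of edgeR. Called genes are those with an adjusted p under 0.05 in the quasi-likelihood test of edgeR, fitted to all 17378 genes that passed the filter on low counts. All 10 factors passed this filter. Vps13a was lower in every DKO library (607 to 1039 normalized counts) than in every WT library (1825 to 2109), while counts over the whole Vps13c gene were not (518 to 1088 in DKO and 503.7 to 664 in WT, edgeR adjusted p = 0.182). Xist, the RNA that silences an X chromosome in females, had at most 30.1 normalized counts in WT and 62.3 in DKO replicate 3, against 18029 to 27043 in the other DKO libraries. Sex was therefore not balanced between the genotypes. In a fit with sex as a factor the genotype difference rests on DKO replicate 3 against WT, and values from it are given where they change a call.

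Of the 10 factors, 3 were called higher in DKO and 0 were called lower. Zfpm1, Ldb1 and Lmo2 rose, with log2 fold changes of 0.98, 0.75 and 0.58. Among all genes tested, 10.7% were called higher and 10.8% lower. At an unadjusted p under 0.05, 2 factors, Nfe2 and Spi1, were lower with edgeR. DESeq2 called both of them lower and limma-voom called 1, Nfe2, and each of these tools called 12.8% of all genes lower. Both also called Zfpm1, Ldb1 and Lmo2 higher, with 13.4% of all genes higher by DESeq2 and 10.1% by limma-voom. With edgeR and TMM, 0 of the 10 were called with a log2 fold change beyond 1 in either direction, which 6.19% of all genes were as higher and 2.43% as lower. Every DKO library lay above every WT library for the 3 called factors, and below for Nfe2 and Spi1. Over all genes tested, 13.5% did not overlap in the first way and 14.6% in the second. Gata1, Gata2, Klf1, Tal1 and Gfi1b overlapped between the genotypes.

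**Figure D1:**
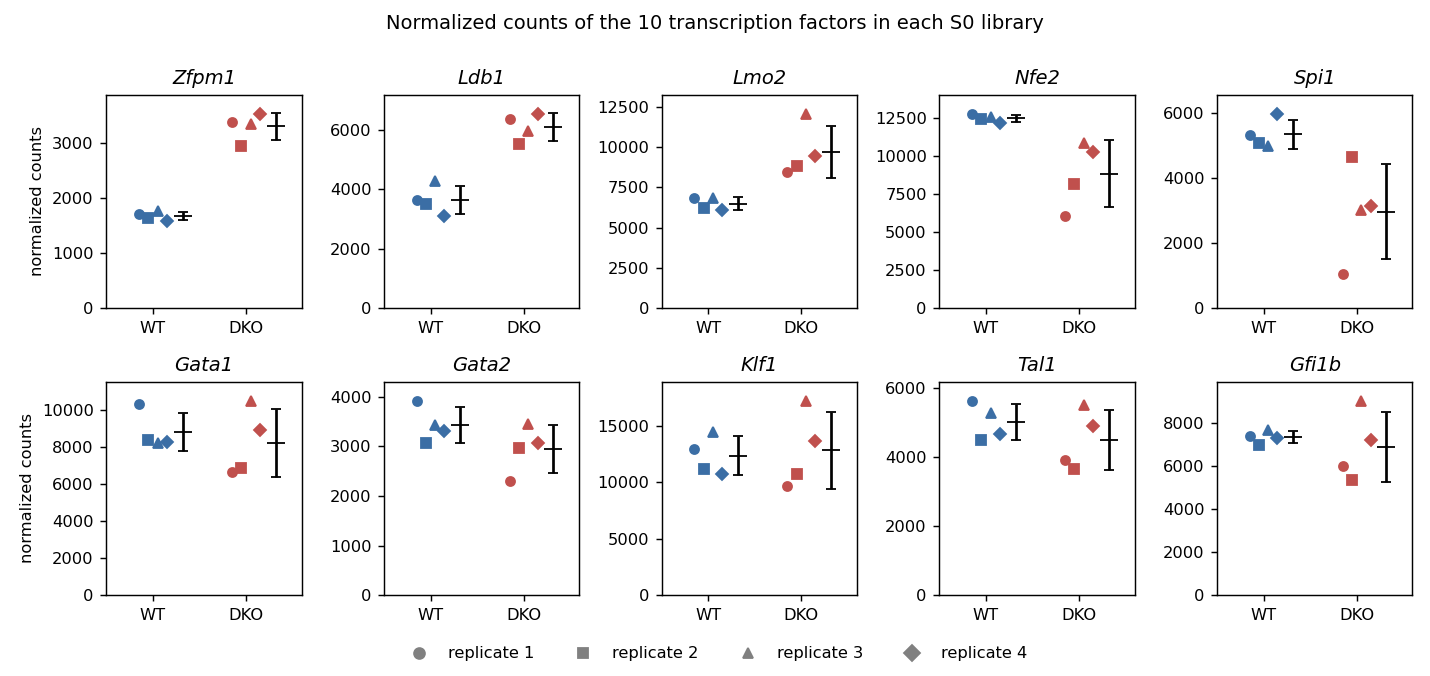
Normalized counts (y axis, from 0) of each factor in the 4 WT and 4 DKO libraries; symbols stand for replicates and the black bar gives the mean and SD. Zfpm1, Ldb1 and Lmo2 are higher in all 4 DKO libraries, Nfe2 and Spi1 are lower in all 4, and the other 5 overlap.

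Zfpm1 (ENSMUSG00000049577.15, plus strand, chr8:122282141-122337251 of GRCm38) encodes the cofactor that GATA1 and GATA2 bind and that carries repressors to their sites. The WT libraries had 1707, 1637, 1776 and 1591 normalized counts in replicates 1 to 4, and the DKO libraries had 3395, 2947, 3354 and 3535. The genotypes were far apart, with an SD of 80.8 in WT and 253 in DKO. The log2 fold change was 0.98 (standard error 0.087, 95% interval 0.79 to 1.17, edgeR adjusted p = 0.000389). An exact two-sided permutation test of the 8 libraries gave p = 0.0286, the smallest that 4 against 4 allow. A gene on the same strand, Gm20388, overlaps Zfpm1 and had at most 14 counts.

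Ldb1 (ENSMUSG00000025223.14, minus strand, chr19:46031570-46045214) encodes the protein that joins distant sites. It had 3647, 3523, 4269 and 3112 normalized counts in the WT libraries and 6384, 5527, 5968 and 6546 in the DKO libraries. All 4 DKO libraries were higher than all WT libraries. The log2 fold change was 0.75 (standard error 0.11, 95% interval 0.51 to 0.99, edgeR adjusted p = 0.00311). Pprc1, on the opposite strand, overlaps Ldb1 and had 4242 to 4928 counts in WT and 2266 to 2864 in DKO, so it went the other way. Whether the counting used strand is not given in the sources used here, so reads of the pair cannot be told apart.

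Lmo2 (ENSMUSG00000032698.15, plus strand, chr2:103957986-103981878) encodes the LIM protein that holds TAL1 and LDB1 together. It had 6829, 6197, 6839 and 6071 normalized counts in the WT libraries and 8466, 8817, 12055 and 9471 in the DKO libraries. The DKO libraries were all higher, and replicate 3 stood above the other 3. The log2 fold change was 0.58 (standard error 0.12, 95% interval 0.32 to 0.84, edgeR adjusted p = 0.00963), and it was 0.46 without DKO replicate 3 (edgeR adjusted p = 0.00885). A gene on the opposite strand, 4931422A03Rik, had at most 38 counts.

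Zfpm1, Ldb1 and Lmo2 were called in all 8 fits that each left out 1 library and in all 12 other settings. Over these fits their highest adjusted p-values were 0.00958, 0.0409 and 0.0365.

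The letters before the start sites of Zfpm1 and Ldb1 are shown beside those of Gata1, because the first pair rose while Gata1 was not called. Sequences are from RefSeq on GRCm38.p6, and each covers the 250 bases before a start site, read 5′ to 3′ on the strand of the gene. The table of promoters held 7 of the 10 factors, without Lmo2, Nfe2 and Spi1. Capitals mark GATA sites (AGATAA or TGATAA, and also AGATAG or TGATAG, on either strand) and CACCC boxes (CCNCNCCC on either strand), letters bound by GATA factors and by KLF1 and its relatives. Overlapping matches run together.
Zfpm1, chr8:122281891-122282140, plus strand: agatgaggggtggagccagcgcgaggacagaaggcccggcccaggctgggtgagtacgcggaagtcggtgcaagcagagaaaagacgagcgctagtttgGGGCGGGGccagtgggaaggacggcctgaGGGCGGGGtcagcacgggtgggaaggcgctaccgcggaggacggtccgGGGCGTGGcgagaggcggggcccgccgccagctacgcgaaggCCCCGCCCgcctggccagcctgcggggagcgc
Ldb1, first start, chr19:46045312-46045561, minus strand: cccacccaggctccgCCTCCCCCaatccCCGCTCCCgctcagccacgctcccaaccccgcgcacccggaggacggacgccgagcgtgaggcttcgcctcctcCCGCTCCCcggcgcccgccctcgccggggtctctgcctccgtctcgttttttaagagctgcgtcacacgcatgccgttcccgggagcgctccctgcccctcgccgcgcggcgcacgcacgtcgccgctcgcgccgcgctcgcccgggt
Ldb1, innermost start, chr19:46037071-46037320, minus strand: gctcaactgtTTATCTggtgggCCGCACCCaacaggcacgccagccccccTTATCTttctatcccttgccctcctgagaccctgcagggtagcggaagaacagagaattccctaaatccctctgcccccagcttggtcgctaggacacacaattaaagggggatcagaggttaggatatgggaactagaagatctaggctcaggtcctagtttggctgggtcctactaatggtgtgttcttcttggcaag
Gata1, chrX:7967911-7968160, minus strand: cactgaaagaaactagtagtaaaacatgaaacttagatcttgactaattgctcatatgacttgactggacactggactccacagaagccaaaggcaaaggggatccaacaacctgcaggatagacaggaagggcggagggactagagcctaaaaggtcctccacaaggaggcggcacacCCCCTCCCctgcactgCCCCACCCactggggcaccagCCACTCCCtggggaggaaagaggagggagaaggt

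The Zfpm1 window held 4 CACCC boxes and 0 GATA sites, and 73.2% of its bases were G or C. The first Ldb1 window held 3 CACCC boxes and 0 GATA sites, while the innermost held 2 GATA sites, 1 CACCC box and 1 E-box (CANNTG, the letters bound by TAL1 with an E protein). The Gata1 window held 3 CACCC boxes, 0 GATA sites, 1 E-box and 1 PU.1 core (GAGGAA). The middle Ldb1 window, not shown, held 3 CACCC boxes, 0 GATA sites and 1 PU.1 core. Klf1, Tal1 and Gfi1b, which were not called, each had a window with 1 GATA site. Windows of factors that were not called also held CACCC boxes, with 6 in the second Gata2 window and 4 in the second Tal1 window. The other windows of Gata2, Tal1, Klf1 and Gfi1b held 0 to 2. Of all 32851 promoter windows of this length, 26.5% held a GATA site, 45.9% a CACCC box, 66.2% an E-box and 23.3% a PU.1 core. The matches describe letters only, and no binding was measured.

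Nfe2 (ENSMUSG00000058794.12, minus strand, chr15:103248212-103258403) encodes the large subunit of NF-E2, which pairs with a small MAF protein and acts on globin genes and in platelet formation. It was nearly constant in WT, at 12736, 12391, 12509 and 12151 normalized counts. The DKO libraries had 6027, 8140, 10850.1 and 10270.0. All 4 lay below WT and they varied more among themselves, with a coefficient of variation of 24.9% against 1.96% in WT. The log2 difference of -0.50 (95% interval -0.86 to -0.14) did not pass the test (edgeR adjusted p = 0.0542, exact permutation p = 0.0286). It did without DKO replicate 1 (-0.35, edgeR adjusted p = 0.0277) and without DKO replicate 3 (-0.61, edgeR adjusted p = 0.0272). No other fit that left out 1 library passed, with edgeR adjusted p up to 0.122. With sex as a factor the log2 difference of Nfe2 was -0.20.

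Spi1 (ENSMUSG00000002111.8, plus strand, chr2:91082390-91115756) had 5334, 5097, 5005 and 5982 normalized counts in WT. The DKO libraries had 1064, 4665, 3007 and 3160. All 4 were below WT, with replicate 1 far down and replicate 2 close to WT, and their coefficient of variation of 49.6% was the highest of the 10 factors (8.23% in WT). The log2 difference of -0.85 (95% interval -1.61 to -0.084) did not pass the test (edgeR adjusted p = 0.105, exact permutation p = 0.0286). It did without DKO replicate 1 (-0.56, edgeR adjusted p = 0.0287) and without DKO replicate 2 (-1.16, edgeR adjusted p = 0.0409). The fits that left out any other library did not pass, with edgeR adjusted p up to 0.214. With sex as a factor the log2 difference of Spi1 was -0.83. In bulk samples, fewer cells with a transcript and less of it per cell cannot be told apart.

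Gata1 (ENSMUSG00000031162.14, minus strand, chrX:7959260-7978071) had 10342, 8413, 8214 and 8302 normalized counts in the WT libraries and 6649, 6881, 10502 and 8906 in the DKO libraries. The DKO libraries lay on both sides of WT. The log2 difference was -0.10 (95% interval -0.44 to 0.24, edgeR adjusted p = 0.687). The gene is X-linked, and its highest DKO library was replicate 3, the one with little Xist. The same library was the highest of the DKO libraries for 7 factors, of which Gata2, Klf1, Tal1, Lmo2, Nfe2 and Gfi1b are autosomal. Replicate 1 was the lowest DKO library for 6 factors and replicate 2 for the other 4.

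Gata2 (ENSMUSG00000015053.14, plus strand, chr6:88193891-88207032), the factor of early progenitors, had 3915, 3060, 3432 and 3311 normalized counts in the WT libraries and 2302, 2973, 3456 and 3077 in the DKO libraries. Of the DKO libraries, replicates 3 and 4 lay within the WT range and replicates 1 and 2 below it. The log2 difference was -0.22 (95% interval -0.51 to 0.074, edgeR adjusted p = 0.264).

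Klf1 (ENSMUSG00000054191.8, plus strand, chr8:84901928-84905291) activates adult beta-globin and red cell membrane genes. It had 12967, 11153, 14437 and 10691 normalized counts in the WT libraries and 9622, 10736, 17171 and 13650.1 in the DKO libraries. The genotypes overlapped, and the DKO range was the wider. The log2 difference was 0.06 (95% interval -0.34 to 0.46, edgeR adjusted p = 0.857), and it turned to -0.12 without DKO replicate 3 and -0.02 without WT replicate 4.

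Tal1 (ENSMUSG00000028717.12, plus strand, chr4:115056426-115071755), the basic helix-loop-helix subunit of the complex, had 5614, 4476, 5269 and 4662 normalized counts in the WT libraries and 3918, 3642, 5498 and 4899 in the DKO libraries. The log2 difference was -0.16 (95% interval -0.47 to 0.16, edgeR adjusted p = 0.459). Gfi1b (ENSMUSG00000026815.14, minus strand, chr2:28609450-28621982), a repressor that recruits LSD1 and CoREST, had 7381, 7000.4, 7683 and 7288 in WT and 5990.2, 5339, 9027 and 7233 in DKO. The genotypes overlapped for both genes, with DKO replicates 1 and 2 below WT. The log2 difference of Gfi1b was -0.09 (95% interval -0.42 to 0.24, edgeR adjusted p = 0.706), and it was 0.01 without DKO replicate 2. With sex as a factor the differences of Gata1, Gata2, Tal1 and Gfi1b turned positive, at 0.25, 0.01, 0.14 and 0.30.

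**Figure D2:**
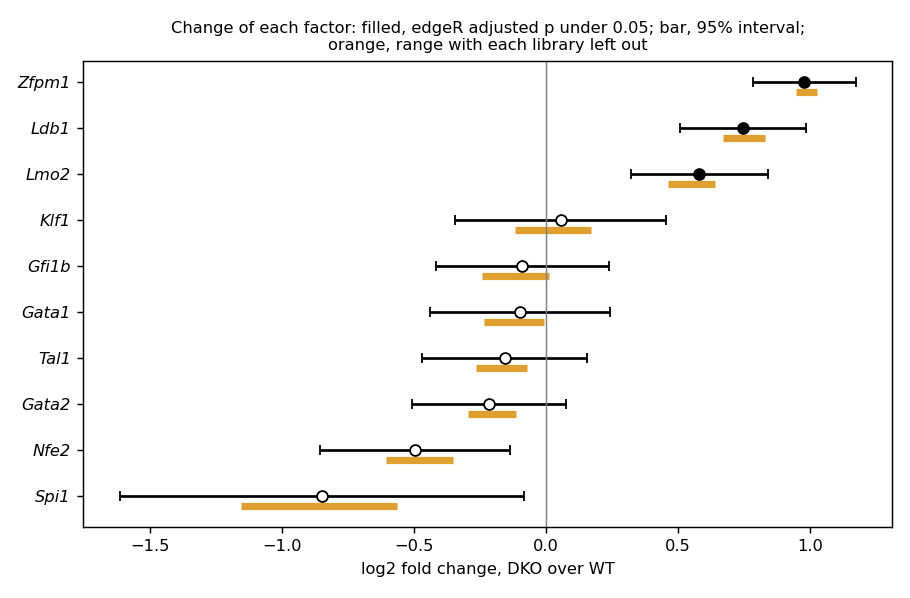
Log2 fold change of DKO over WT (x axis) for each factor, with its 95% interval; filled points have an edgeR adjusted p under 0.05 and orange bars span the 8 fits that each left out 1 library. Zfpm1, Ldb1 and Lmo2 lie between 0.58 and 0.98, and Nfe2 and Spi1 at -0.50 and -0.85.

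Levels of different genes were compared per kilobase of merged exons. In WT the mean levels were 8047 normalized counts per kilobase for Klf1, 4166 for Nfe2, 4009.8 for Gfi1b, 3617 for Gata1, 2993 for Lmo2, 1987 for Spi1, 1143 for Tal1, 789.8 for Ldb1, 635 for Gata2 and 479 for Zfpm1. In this order the ranges of Nfe2 and Gfi1b, of Gfi1b and Gata1, and of Ldb1 and Gata2 overlapped, and the other neighbours were apart. In DKO, Lmo2 stood next to Klf1 (4479 ± 749 and 8363 ± 2206 per kilobase, SD, n = 4), followed by Gfi1b (3769 ± 887), Gata1 (3378 ± 747) and Nfe2 (2952 ± 735). From Lmo2 to Nfe2 each range overlapped the next. The order of Nfe2, Gata1 and Gfi1b depended on the length used: per kilobase of the longest transcript they had 4697, 4329.5 and 3786 in DKO, and in WT Gata1 stood above Gfi1b. Ldb1 (1326 ± 99.1) and Zfpm1 (944 ± 72.2) came to the level of Spi1 (1104 ± 548) and Tal1 (1025 ± 197), and neighbours among these 4 overlapped. Gata2 was lowest in DKO, at 547 ± 89.0, apart from Zfpm1.

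Ratios between factors within a library do not depend on how libraries are scaled. There were 12 ratios, taken per kilobase with a pseudocount of 0.5 counts and compared on the log2 scale with an exact two-sided permutation test. After adjustment over the 12, 0 were under 0.05, with a lowest adjusted p of 0.0857. Without adjustment 4 reached the smallest p of 0.0286, which were Zfpm1, Ldb1, Lmo2 and Nfe2, each over Gata1. As 4 against 4 libraries allow no smaller p, 4 such ratios out of 12 could not pass the adjustment. The adjusted values therefore cannot decide about them. These 4 ratios share Gata1 and are not independent of each other.

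The Gata1 to Gata2 ratio was 5.85, 6.09, 5.30 and 5.55 in WT and 6.39, 5.12, 6.73 and 6.41 in DKO. It was above WT in 3 DKO libraries and below it in replicate 2 (log2 difference 0.11, exact permutation p = 0.286, adjusted p = 0.343). The Gata1 to Spi1 ratio was 2.14, 1.82, 1.81 and 1.53 in WT and 6.90, 1.63, 3.86 and 3.12 in DKO. It was above WT in 3 DKO libraries, with replicate 2 within the WT range (log2 difference 0.91, exact permutation p = 0.114, adjusted p = 0.196). The difference was 1.26 without DKO replicate 2 and 0.57 without DKO replicate 1. Gata2 to Spi1 and Klf1 to Spi1 also had 3 DKO libraries above WT and replicate 2 within it, with log2 differences of 0.80 and 1.06 (exact permutation p = 0.0857 for each).

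The ratio of Zfpm1 to Gata1 was 0.115 to 0.150 in WT and 0.222 to 0.355 in DKO, a log2 difference of 1.09. Ldb1 to Gata1 was 0.187 to 0.275 in WT and 0.301 to 0.508 in DKO, and Lmo2 to Gata1 was 0.743 to 0.937 and 1.20 to 1.44. Nfe2 to Gata1 was lower in all DKO libraries, at 0.740 to 0.965 against 1.005 to 1.24. The ranges of Tal1 to Gata1 (0.296 to 0.357 in WT and 0.291 to 0.328 in DKO) and of Gfi1b to Gata1 (0.951 to 1.25 and 1.03 to 1.20) overlapped. So did those of Klf1 to Gata1 (1.998 to 2.80 and 2.31 to 2.61) and of Lmo2 to Ldb1 (3.41 to 4.15 and 2.82 to 4.30).

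**Figure D3:**
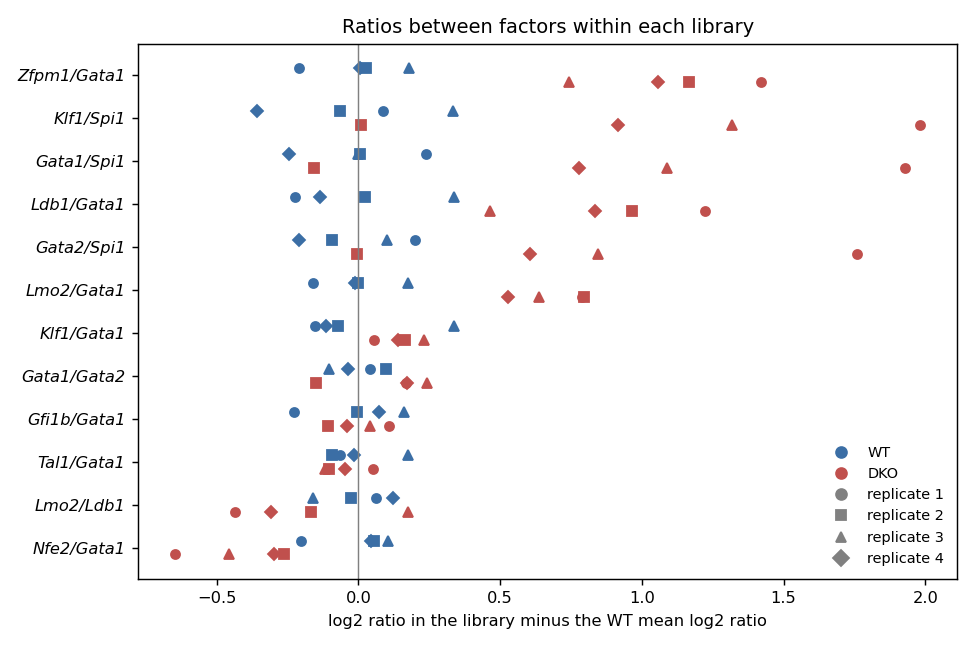
Log2 ratio of 2 factors in each library minus the mean log2 ratio in WT (x axis), for 12 ratios; colors give the genotype and symbols the replicate. Zfpm1, Ldb1 and Lmo2 over Gata1 are higher and Nfe2 over Gata1 is lower in all 4 DKO libraries, while Gata1 over Gata2 overlaps.

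Partners of the complex changed in both directions. Of 22 tested, 5 were called higher and 5 lower (22.7% each), against 10.7% and 10.8% of all genes. Their median log2 fold change was 0.0016, against 0.03 for all genes. Tcf3, which encodes the E proteins E12 and E47 that pair with TAL1, rose from 4914 ± 382 to 6856 ± 672 normalized counts (SD, n = 4, edgeR adjusted p = 0.00885). Ssbp4, of a family that stabilizes LDB1, rose from 2286 ± 274 to 3289 ± 257. Runx1, a regulator of blood stem cells, fell from 6043 ± 537 to 3785 ± 728, and Cbfa2t3, the corepressor ETO2 of the TAL1 complex, fell from 8408 ± 401 to 6583 ± 429.5. Mta1 and Mbd3 rose (log2 fold changes of 0.60 and 0.43), and Mta2 and Hdac1 fell (-0.56 and -0.28). These 4 encode subunits of the NuRD repressor, as do Hdac2 of the same list, which rose (0.35), and Chd4, Gatad2a and Rbbp4, which were not called (0.00, -0.18 and 0.15). With sex as a factor 0 were called in either direction. The number higher was 2 without WT replicate 1, 2 or 4 and 3 without DKO replicate 4. The number lower was 3 without WT replicate 1, 3 or 4. Over all genes, 858, 1011 and 948 were called higher and 898, 1050 and 957 lower without WT replicate 1, 2 or 4. The main fit called 1867 higher and 1878 lower. The same fits are used for the lists below.

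Of 8 genes for small MAF proteins, relatives of NFE2 and the competing BACH factors, 2 were called higher and 2 lower (25.0% each). Over all genes these shares were 10.7% and 10.8%. Mafk, a small MAF partner of NFE2, fell from 1907 ± 228 to 1248 ± 286 normalized counts (SD, n = 4, edgeR adjusted p = 0.0345). Maff and Mafg, of the same family, rose by 0.93 and 0.49 on the log2 scale, and Maff was low in WT at 365 ± 50.2. Nfe2l2, the stress factor NRF2, fell (log2 fold change -0.32), with overlapping libraries. The number lower was 0 without WT replicate 1, 2 or 4 or DKO replicate 2 and 1 without WT replicate 3 or DKO replicate 1 or 4, and the number higher was 1 without WT replicate 1 or 4. With sex as a factor both numbers were 0.

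Among 18 other transcription factors of red cell formation, 1 was called higher (5.56%) and 3 lower (16.7%), against 10.7% and 10.8% of all genes. Klf3, a relative of KLF1 that represses, rose from 1188 ± 59.0 to 1732 ± 328 normalized counts (SD, n = 4, edgeR adjusted p = 0.0237). Myb, which keeps progenitors cycling, fell from 9186 ± 593 to 6339 ± 1333. Ikzf1 (Ikaros) and Stat5b, which acts below the erythropoietin receptor, fell (log2 fold changes of -0.62 and -0.35). Klf3 was not called without any 1 WT replicate or without DKO replicate 4, and 2 genes were called higher without DKO replicate 2. The number lower was 1 without WT replicate 1, 2 or 4. With sex as a factor both numbers were 0.

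Genes that GATA1 and KLF1 activate in red cells moved in both directions. Of 31 tested, 3 were called higher (9.68%) and 4 lower (12.9%), near the 10.7% and 10.8% of all genes. Their median log2 fold change was 0.10. Epor, the erythropoietin receptor, rose from 2419 ± 144 to 3348 ± 395 normalized counts (SD, n = 4, edgeR adjusted p = 0.0123). Tspo2, a membrane protein of red cell precursors, rose by 0.99 on the log2 scale, with overlapping libraries. Xpo7, a nuclear transport receptor, Bcl2l1, which protects from apoptosis, Abcb10, a mitochondrial transporter, and Epb41, protein 4.1 of the membrane skeleton, fell, with log2 fold changes of -0.61, -0.54, -0.33 and -0.31. The number higher was 8 without DKO replicate 2, 2 without DKO replicate 1 and 1 without any other library. The number lower was 1 without WT replicate 1, 2 or 4 or DKO replicate 2. With sex as a factor the numbers were 1 higher and 0 lower.

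Progenitor genes linked to GATA2 were mostly lower. All 18 had a log2 fold change below 0, with a median of -0.78, and 13 were called lower (72.2%), against 10.8% of all genes. The number called higher was 0 with edgeR, and 0 were higher at an unadjusted p under 0.05 with edgeR, DESeq2 or limma-voom. Myc, a driver of growth and division, fell from 28612 ± 1614 to 18437 ± 1413 normalized counts (SD, n = 4, edgeR adjusted p = 0.00227). Kit, the stem cell factor receptor, fell from 8763 ± 1019 to 4066 ± 747, and the transcription factors Hhex and Ikzf2 fell (log2 fold changes of -0.98 and -1.06). With sex as a factor 2 were called lower. The list shares Runx1, Lyl1 and Myb with the lists above.

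Myeloid genes that SPI1 activates were lower as well. Of 28 tested, 27 had a log2 fold change below 0, with a median of -1.16. Called lower were 13 (46.4%), against 10.8% of all genes. The number called higher was 0 with edgeR, and 0 were higher at an unadjusted p under 0.05 with edgeR, DESeq2 or limma-voom. Lyz2 (lysozyme) fell from 3594 ± 566 to 909.8 ± 418 normalized counts (SD, n = 4, edgeR adjusted p = 0.00507). Fcgr3, an Fc receptor, and the kinases Fes and Btk fell (log2 fold changes of -1.61, -1.39 and -0.94). The summed level of the list was 174965 to 222460 in WT. Mpo, of the same list, gave 91281 to 120802 of this WT sum. DKO replicate 1 had both the lowest sum (23539) and the lowest Spi1, and DKO replicate 2 had the highest DKO sum (97626) and the highest DKO Spi1. A link between Spi1 and the sum was not tested. The number lower was 7 without WT replicate 1 or 4, 8 without WT replicate 2 and 0 with sex as a factor. The lists were chosen with earlier results of these data known, so these counts are not independent evidence of a direction.

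**Figure D4:**
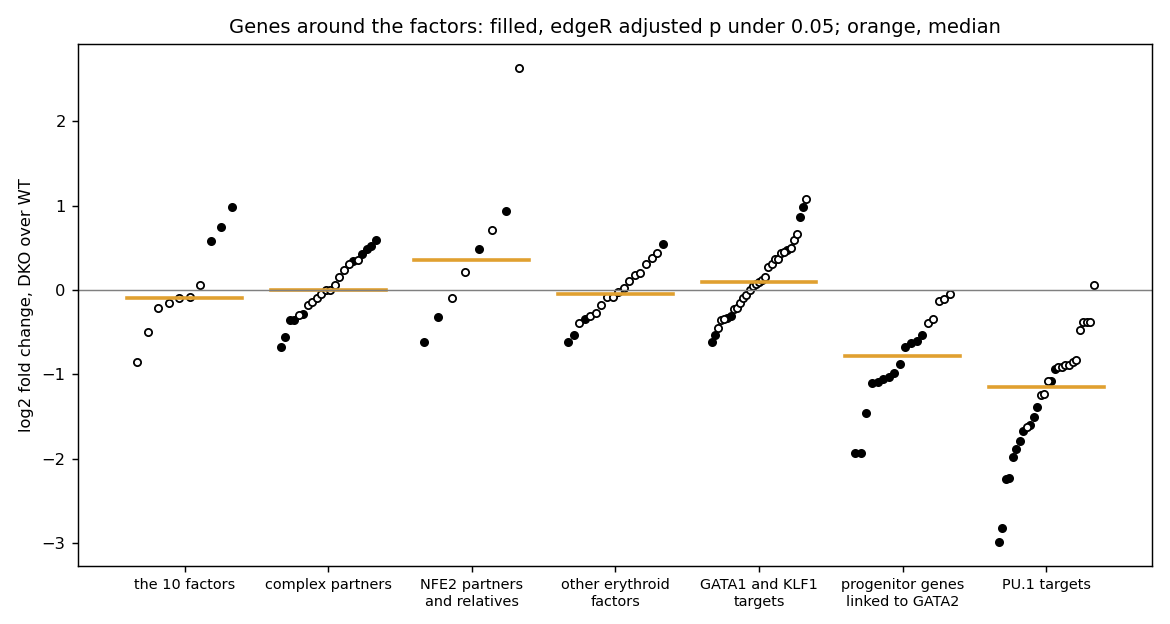
Log2 fold change of DKO over WT (y axis) for each tested gene of the 10 factors and 6 lists, with the median in orange; filled points have an edgeR adjusted p under 0.05. The progenitor and PU.1 lists have medians of -0.78 and -1.16, and the other medians lie between -0.09 and 0.35.

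Other cells express several of these factors, and markers of such cells differed between the genotypes. For the marker counts below, 10.7% of all genes were called higher and 10.8% lower. Beside Spi1, the summed level of 10 neutrophil markers was 101569 to 132277 normalized counts in WT and 5311 to 44779 in DKO, with Mpo, Elane and Ctsg of 7 tested called lower and Ly6g at 0 in every library. The 10 macrophage markers summed to 4881 to 7388 in WT and 1376 to 4388 in DKO, with Adgre1 of 9 tested called lower. Csf1r and Vcam1 gave most of the sum in WT and were not called (edgeR adjusted p = 0.0961 and 0.149). Adgre1 was low, with a WT mean of 110. Of the 9 tested, 7 had a log2 fold change below 0. C1qa and C1qc were above 0 (0.78 and 0.47), with WT means of only 13.9 and 18.8. The 10 lymphoid markers summed to 3445 to 4998 in WT and 576 to 1845 in DKO, with Rag2 and Flt3 of 6 tested called lower. Mpo, Elane, Ctsg, Csf1r and Adgre1 also stand in the list of PU.1 targets. The lineage antibodies of the sort, which included those to CD11b, Ly6G/Ly6C, B220 and CD3e, remove only cells that carry the proteins they bind. Whether the cells with these transcripts carried them was not measured. The part of such cells in the lower values of Spi1 was not tested.

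Megakaryocytes use Gata1, Zfpm1, Nfe2, Gfi1b and Tal1. Their 12 markers summed to 65405 to 77097 normalized counts in WT and 46171 to 134487 in DKO, with 1 called lower. DKO replicates 3 and 4 were above WT and replicates 1 and 2 below it, while Zfpm1 was higher and Nfe2 lower in all 4. The 8 mast cell and basophil markers, beside Gata2, summed to 4668 to 7667 in WT and 656 to 4253 in DKO, with Cpa3 of 3 tested called lower and Fcer1a at 0 in every library. The 10 endothelial markers, beside Tal1, Lmo2 and Gata2, summed to 5289.6 to 6529.7 in WT and 2788 to 3658 in DKO, with Eng, Erg and Pecam1 called lower. Eng and Pecam1 gave most of the sum in WT, and Erg also stands in the list of genes linked to GATA2. The other 7 were not called, among them Cdh5 and Kdr (edgeR adjusted p = 0.781 and 0.565). The part of these cells in the levels of the factors was not tested.

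Markers from outside the blood also differed. The 10 mesenchyme markers summed to 2068 to 5909.8 normalized counts in WT and 13257 to 46054 in DKO, with 9 called higher, and DKO replicate 1 had the highest sum. Without that library the log2 fold changes were 0.97 for Zfpm1, 0.73 for Ldb1 and 0.64 for Lmo2. The other DKO libraries still summed to 13257 to 21854, above every WT library. The part of cells from outside the blood in the levels of the factors was not tested. Of the muscle markers 5 of 10 were called higher (1824 to 2653 in WT and 3256 to 7449.9 in DKO), and of the neural markers 1 of 7, Dcx (698 to 1005 and 994 to 5419.6). The hepatoblast markers were abundant in both genotypes (688890 to 937500 and 207727 to 792807). Of these 12, 0 were called by edgeR, 4 were lower at an unadjusted p under 0.05, and DESeq2 and limma-voom called 4 and 3 lower. The erythroid markers summed to 19278 to 22295 in WT and 17449 to 34664 in DKO, with 2 of 9 called higher. The embryonic globins, markers of primitive red cells, summed to 4284 to 14675 and 4595 to 82932, with Hbb-bh1 and Hba-x of 3 called higher.

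**Figure D5:**
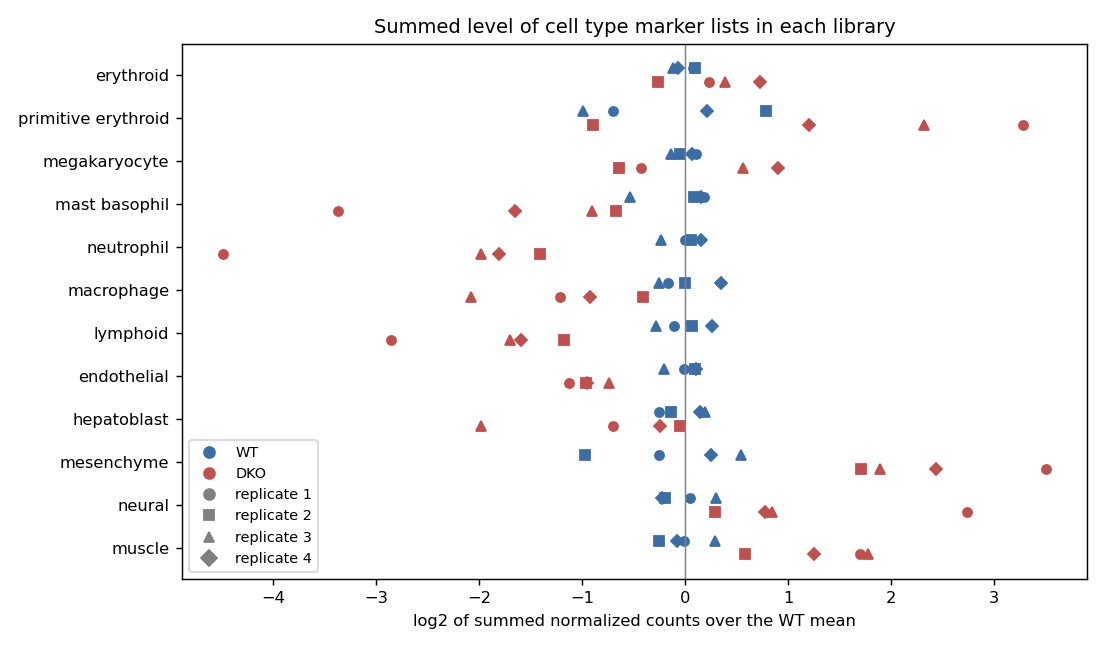
Summed normalized counts of each marker list in each library as log2 over the WT mean (x axis); colors give the genotype and symbols the replicate. Mesenchyme and muscle markers are higher, and mast cell, neutrophil, macrophage, lymphoid and endothelial markers lower, in all 4 DKO libraries.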

How the data were processed

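RNAseq counts of S0 cells were analysed for 4 WT and 4 DKO libraries, grouped by their titles and matched to columns by library name. Per the methods and the processing notes, the authors trimmed reads with fastp 0.21.0, mapped them to mm10 with HISAT2 2.2.1, removed alignments of low quality and counted with StringTie 1.3.3b and prepDE. The deposited values are whole-number counts per gene, neither normalized nor pooled. The prepDE script derives counts from coverage, so totals can differ from read numbers. Symbols matched 52403 of 52636 identifiers, and coordinates are those of GRCm38, the same build as mm10.

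Counts were analysed with edgeR 4.0.16 in R 4.3.3 (filterByExpr, TMM, robust quasi-likelihood test, Benjamini-Hochberg adjustment, no covariate). Alternatives used DESeq2 1.42.0 (the tool of the methods), limma 3.58.1, other scalings and filters, a replicate block, sex as a factor and each library left out. Leaving out DKO replicates 1 and 3 together was added after seeing the data. Single values were compared by exact permutation over 70 arrangements. The fits were tested on simulated counts. The sex difference of DKO replicate 3 from the other DKO libraries means that the DKO libraries did not all come from the same embryo. Beyond that, nothing says that libraries are separate embryos. The p-values therefore measure the spread between these libraries, which may be technical in part, and in WT wholly.

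The factors and gene lists were chosen with earlier results of these data known. The text names the 10 factors, of each list up to 4 called genes per direction with the smallest p, and called markers. Lyl1, Hdac2, Chd4, Gatad2a, Rbbp4 and the overlapping genes Gm20388, Pprc1 and 4931422A03Rik are named outside this rule, and 2 genes that it takes are not reported here.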

Additional observations from a re-analysis of the deposited data

Results flagged for a closer look

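In WT, replicate 1 had 10342 normalized counts of Gata1, apart from the other WT libraries at 8214 to 8413. Its gap to the nearest library was 0.907 of the range of the group, above the 95% critical value of Dixon's test for 4 samples. The ratio of Klf1 to Gata1 per kilobase was 2.80 in WT replicate 3 and 1.998 to 2.11 in the other WT libraries, a gap of 0.857 of the range. These were 2 of 44 groups of values looked at, and chance marks about 1 group in 20. Without WT replicate 1 the log2 difference of Gata1 was -0.02.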

How the results depend on the processing

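Zfpm1, Ldb1 and Lmo2 were called higher under every alternative, and the number of factors higher was 3 throughout. The number lower was 2 with DESeq2 and 1 with library size without TMM, counts divided by 2, a minimum of 10 counts in every library, limma-voom, or DKO replicates 1 and 3 left out, and 0 to 2 with 1 library left out. With upper-quartile scaling, which moved the median of all genes from 0.03 to 0.14 on the log2 scale, 1 factor (Zfpm1, 1.09) was beyond a log2 fold change of 1, and with 1 library left out 0 to 2 were. Log2 differences that changed sign were those of Gata1 (0.0079) and Gfi1b (0.017) with upper-quartile scaling, of Gata1 (0.25), Gata2 (0.011), Tal1 (0.14) and Gfi1b (0.30) with sex as a factor, of Klf1 with DKO replicates 1 and 3 left out (-0.010), without WT replicate 4 (-0.016) and without DKO replicate 3 (-0.12), and of Gfi1b without DKO replicate 2 (0.011). With 1 library left out Klf1 ranged from -0.12 to 0.17 and Gfi1b from -0.24 to 0.011. The cause was not tested.

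Numbers of list genes moved as follows. With sex as a factor, or without any 1 WT library, fewer genes were called over all genes as well. Complex partners higher were 0 with sex as a factor and 3 with DKO replicates 1 and 3 left out, and those lower were 3 with upper-quartile scaling and 0 with sex. NFE2 partners higher were 0 with sex, and those lower were 0 with upper-quartile scaling, 1 without the low-count filter and 0 with sex. Other factors higher were 2 with upper-quartile scaling and 0 with sex, and those lower were 1 and 0. GATA1 and KLF1 targets higher were 6 with DESeq2 and 1 without the low-count filter, with limma-voom or with sex, and those lower were 1 with upper-quartile scaling, 0 with sex and 1 with DKO replicates 1 and 3 left out. GATA2-linked genes lower were 2 with sex, and PU.1 targets lower were 0 with sex. With 1 library left out, complex partners ranged from 2 to 5 higher and 3 to 5 lower, NFE2 partners from 1 to 2 and 0 to 2, other factors from 0 to 2 and 1 to 4, GATA1 and KLF1 targets from 1 to 8 and 1 to 4, and PU.1 targets from 7 to 18 lower. As differences of medians, Zfpm1, Nfe2, Ldb1 and Lmo2 over Gata1 were 1.09, -0.43, 0.96 and 0.72, with exact permutation p = 0.0571 for each. With 1 library left out these 4 ratios ranged from 0.99 to 1.21, -0.48 to -0.34, 0.75 to 1.01 and 0.63 to 0.75, where 4 against 3 libraries cannot give a p under 0.0571.

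Libraries with the same replicate number did not deviate together (correlations of -0.10, 0.053, -0.028 and -0.0072), so the numbers do not pair them. With a replicate block the 3 called factors stayed called and 0 were lower. Complex partners were then 2 higher and 3 lower, NFE2 partners 1 and 0, other factors 0 higher, and GATA1 and KLF1 targets 1 and 1.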
